A study of Mus musculus with 6 samples.

Results

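The carbonic anhydrase genes were examined in the medial prefrontal cortex (mPFC) of *Shank3* transgenic (TG) mice. The mice overexpress an EGFP-tagged Shank3, a scaffold protein of excitatory synapses. The 9 genes *Car2*, *Car4*, *Car7*, *Car8*, *Car10*, *Car11*, *Car12*, *Car13* and *Car14* were taken by symbol from the 18254 genes of the deposited table, and all 9 were found there. The set was chosen by a rule that used their normalized counts in TG against wild-type (WT) libraries, with *Car2* set beside *Car13*, so the differences between the genotypes in these 9 genes are given as a description without a test. The 6 libraries came from the mPFC of male mice aged 10 to 12 weeks on the C57BL/6J background, with 3 libraries of *Shank3* TG mice and 3 of WT littermates. Each library pooled tissue from a pair of mice of the same genotype, so a replicate is a pool, and its cell makeup was not sorted. The values are normalized read counts, and those of a library summed to between 28363967 and 29447717. *Shank3* itself had 16310 to 19004 normalized counts in TG and 6791 to 8374 in WT, so the labels held in all 6.

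Carbonic anhydrases turn carbon dioxide and water into bicarbonate and a proton, and back. The active enzymes hold a zinc ion between 3 histidines. In the brain they buffer the fluid around active cells, feed bicarbonate to transporters and to GABA-A receptor channels, and help oligodendrocytes and the choroid plexus move fluid. Members that have lost zinc-binding histidines are called carbonic anhydrase-related proteins and serve as binding partners of other proteins.

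The coding sequences of the 9 genes separated them into 6 with a full zinc site and 3 without. The principal GENCODE transcript of each gene was translated and aligned with that of *Car2*, and positions were counted from 1 at the first methionine of *Car2*. The histidines at positions 94, 96 and 119 of *Car2* were all kept in *Car4*, *Car7*, *Car12*, *Car13* and *Car14*. *Car8* kept 2 of the 3 and carried H94R. *Car10* kept 1 and carried H94R and H119Q, and *Car11* kept 0, with H94R, H96L and H119Q. The lines below show, for 4 of the genes, 30 bases of coding sequence around the first pair of histidines, because this is where the members differ in kind, and the capitals mark the codons aligned with histidines 94 and 96 of *Car2*.
Car2: atccagtttCACtttCACtggggctcatct
Car13: cggcagttcCATttgCACtgggggtcagca
Car10: gaagaaatcCGGctaCACtttgggagtgag
Car11: agtgaactgCGCctgCTAtttggagctcga

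On GRCm38 these stretches lie in coding exons, in exon 3 of 7 of *Car2* (chr3:14895060-14895089, plus strand) and exon 3 of 7 of *Car13* (chr3:14650697-14650726, plus strand). In *Car10* the stretch lies in exon 5 of 10 (chr11:93490597-93490626, plus strand), and in *Car11* in exon 4 of 9 (chr7:45702539-45702568, plus strand). The codon aligned with histidine 119 is shown for the genes that kept or lost it, in capitals within 30 coding bases.
Car2: gctgcagagcttCACttggttcactggaac
Car13: gctgcagagctgCATgttgtccactggaat
Car10: tccggggaggtaCAActcatccactataac
Car11: tccgctgaggtgCAGctaatccacttcaac

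In each of the 9 genes this second stretch crossed a single exon junction, so its genomic span includes an intron. The span was chr3:14895132-14895555 in *Car2*, chr3:14650769-14654904 in *Car13*, chr11:93490669-93578686 in *Car10* and chr7:45702611-45702853 in *Car11*. This held for members with and without the zinc site.

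The proteins formed close pairs within these kinds. *Car10* and *Car11* were identical at 56.7% of their aligned residues and *Car2* and *Car13* at 56.5%. *Car7*, the third cytosolic enzyme, shared 55.0% with *Car2* and 52.7% with *Car13*. The membrane-spanning enzymes *Car12* and *Car14* shared 43.1%. *Car8* was nearer to the cytosolic enzymes (44.9% with *Car7*, 43.3% with *Car2*) than to the other related proteins (34.3% with *Car11*, 33.0% with *Car10*). The lowest identity was 24.0%, between *Car4* and *Car10*.

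**Figure D1:**
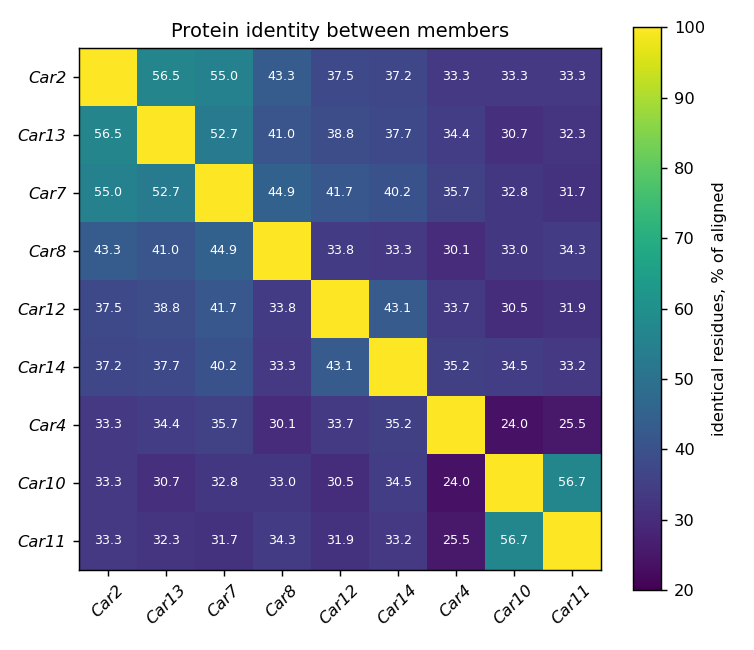
Heat map of protein identity between the 9 carbonic anhydrases, as percent of aligned residues of the translated principal transcripts. The brightest pairs off the diagonal are *Car10* with *Car11* (56.7%), *Car2* with *Car13* (56.5%) and *Car2* with *Car7* (55.0%).

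The level of each gene in the WT mPFC was compared per kilobase of principal transcript, since longer transcripts give more reads. *Car11* had the highest level, 2665 ± 180 normalized counts per kb (SD, n = 3), followed by *Car2* with 1811 ± 215 and *Car10* with 1477 ± 141. *Car11* and *Car10* encode related proteins that neurons express, and *Car2* encodes the fast cytosolic enzyme that is used as an oligodendrocyte marker. The WT libraries of *Car2* (1595 to 2025 per kb) and *Car10* (1345 to 1625 per kb) overlapped, so on this length their order was not separated by the spread between libraries. *Car4*, the lipid-anchored enzyme on the surface of brain capillaries, had 713 ± 72.5 per kb. *Car7*, the neuronal cytosolic enzyme, had 410 ± 61.8 per kb. The levels of *Car8* (mean 99.3 per kb, 88.8 to 109.8 over the libraries) and *Car14* (mean 89.7 per kb, 77.8 to 99.6) overlapped, with *Car12* below them at 58.4 ± 8.04 per kb. *Car13* was the lowest of the 9, with 14.3 ± 1.57 per kb. No other neighbours in this order overlapped. The levels depended on the length used. Per kilobase of all annotated exons of each gene the order of the means was the same, but no neighbours overlapped, with *Car2* at 1178 to 1495 against *Car10* at 696 to 841, and *Car8* at 88.8 to 109.8 against *Car14* at 52.3 to 66.9. On that length the WT means of *Car10* (765), *Car4* (455), *Car7* (173) and *Car12* (28.6) were lower by more than 1.5 times than per kilobase of principal transcript.

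**Figure D2:**
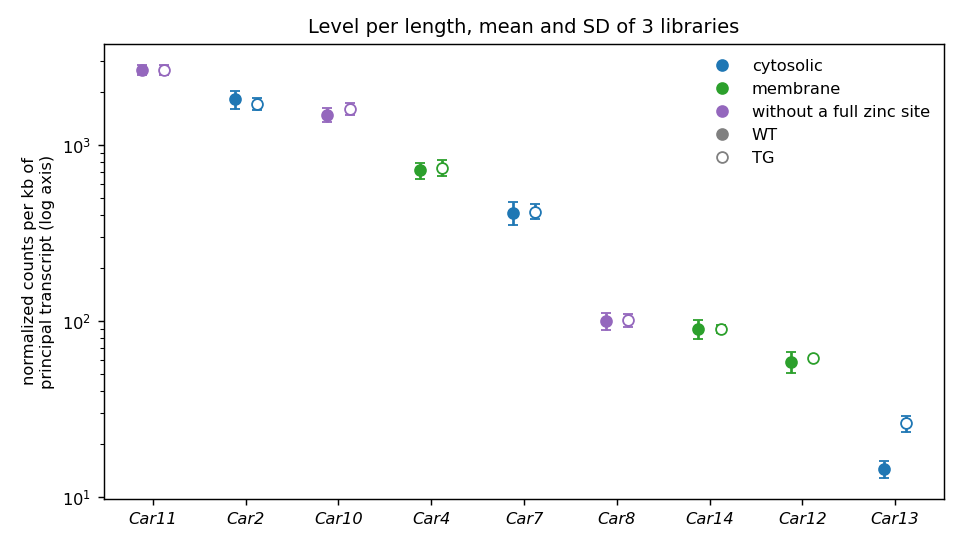
Mean and SD of 3 libraries for each member, in normalized counts per kilobase of the principal transcript on a log axis, with filled points for WT and open points for TG. In WT the levels run from 2665 for *Car11* to 14.3 for *Car13*, and the error bars of WT and TG lie apart for *Car13* and overlap for the other 8 genes.

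The related proteins without a full zinc site made up most of this RNA per length. *Car8*, *Car10* and *Car11* together took 57.8% ± 2.52 (SD, n = 3) of the summed per-kilobase level of the 9 genes in WT and 58.9% ± 1.88 in TG. The cytosolic enzymes *Car2*, *Car7* and *Car13* took 30.4% ± 2.25 in WT and 29.1% ± 1.98 in TG. The membrane-bound enzymes *Car4*, *Car12* and *Car14* took 11.8% ± 1.22 and 12.0% ± 1.44. The 3 shares differed between the genotypes by less than the spread between libraries. Per kilobase of all annotated exons the related proteins took 59.7% ± 2.48 in WT and 60.6% ± 1.89 in TG.

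Of the 9 genes, *Car13* alone differed between the genotypes without overlap of the libraries, and the other 8 overlapped. All 9 passed the filter on low values, a mean of 5 or more over the 6 libraries, and were part of the 16714 genes fitted with limma on the scale log2(normalized count + 1). Over all fitted genes, every TG library lay above every WT library in 2.91% and below in 3.12%. Nothing is read from this count, because the choice of genes used the same contrast. The other 8 members had log2 differences (TG minus WT) between -0.08 and 0.11, or between -5.69% and 7.77% of the WT mean. The median over the 9 genes was 0.03, beside -0.00368 over all fitted genes.

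Among the cytosolic enzymes, *Car13* (ENSMUSG00000027555, chr3:14641727-14663002) encodes a widely distributed enzyme of low abundance. It had 65.8, 53.5 and 60.2 normalized counts in TG-1, TG-2 and TG-3 and 29.8, 36.8 and 32.0 in WT-1, WT-2 and WT-3. The lowest TG library was thus above the highest WT library. The means were 59.9 ± 6.16 in TG and 32.8 ± 3.61 in WT, a ratio of 1.82, and the fitted log2 difference was 0.85 (standard error 0.20). The libraries carry replicate numbers 1 to 3 in both genotypes, and the log2 difference of *Car13* was 1.12 at number 1, 0.53 at number 2 and 0.89 at number 3. A log2 difference larger in size than that of *Car13* was found in 1.91% of the fitted genes. When any single library was removed, the difference stayed between 0.78 and 0.93.

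*Car2* (ENSMUSG00000027562, chr3:14886273-14900770) had 2816, 3268 and 3077 normalized counts in TG and 3621, 2852 and 3241 in WT. The highest value was in WT-1 and the lowest in TG-1, and the others were mixed. The means were 3054 ± 227 in TG and 3238 ± 384 in WT, a log2 difference of -0.08 (standard error 0.10). It was lower in TG at numbers 1 and 3 (-0.36 and -0.07) and higher at number 2 (0.20). *Car7* (ENSMUSG00000031883, chr8:104534689-104550343) had 581, 634 and 705 normalized counts in TG and 618, 541 and 730 in WT. Both libraries numbered 3 were the highest of their genotype, and the log2 difference was 0.03 (standard error 0.13).

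Among the membrane-bound enzymes, *Car4* (ENSMUSG00000000805, chr11:84957786-84966044) had 1036, 881 and 857 normalized counts in TG and 955, 940 and 790 in WT. Its lowest library in each genotype was number 3, and the log2 difference was 0.05 (standard error 0.11). *Car12* (ENSMUSG00000032373, chr9:66713686-66766845) and *Car14* (ENSMUSG00000038526, chr3:95897768-95904691) encode enzymes that span the membrane with the catalytic part outside the cell. *Car12* had 234, 225 and 221 normalized counts in TG and 207, 194 and 251 in WT. *Car14* had 158, 156 and 143 in TG and 157, 133 and 170 in WT. For both genes the highest and the lowest library were WT-3 and WT-2, with the TG libraries between them. The log2 difference of *Car12* was 0.07 (standard error 0.13), and that of *Car14* was under 0.01 in size (standard error 0.14).

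Among the related proteins, *Car10* (ENSMUSG00000056158, chr11:93098028-93601749) encodes a ligand of neurexins, the presynaptic adhesion molecules. It had 5107, 4904 and 5715 normalized counts in TG and 4428, 4816 and 5350 in WT. TG was higher at each of the 3 numbers, by 0.21, 0.03 and 0.10 on the log2 scale, although the groups overlapped. TG was higher at each number in 11.6% of the fitted genes, with or without overlap. Its fitted log2 difference was 0.11 (standard error 0.10, or 0.06 with the replicate number as a block). *Car11* (ENSMUSG00000003273, chr7:45699843-45704682) had 4133, 3993 and 4509 normalized counts in TG and 4181, 3964 and 4529 in WT, so that libraries of the same number were nearly equal. *Car8* (ENSMUSG00000041261, chr4:8143362-8239041) encodes a protein that binds the IP3 receptor Itpr1. It had 397, 413 and 352 normalized counts in TG and 383, 423 and 342 in WT, a log2 difference of 0.02 (standard error 0.12). For both *Car8* and *Car11* the difference between the genotypes was below the spread within them.

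**Figure D3:**
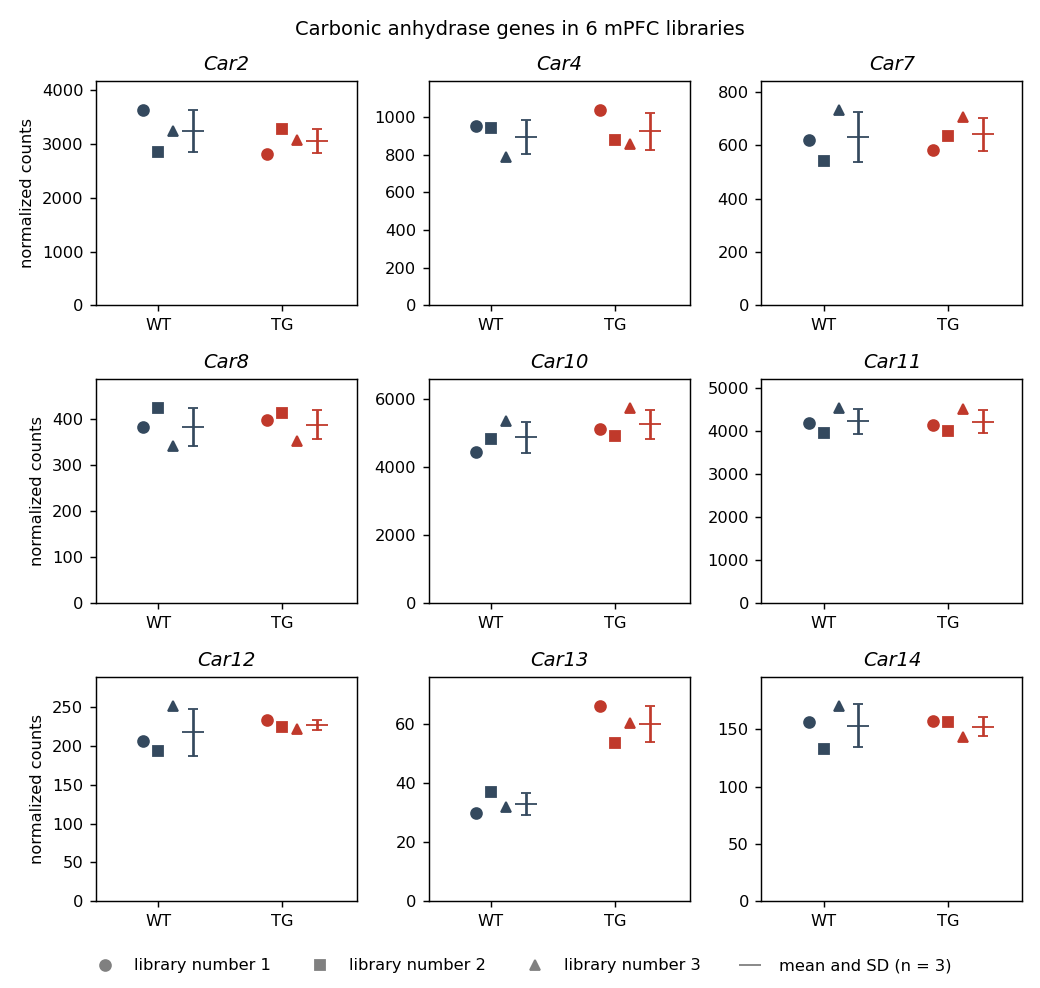
Normalized counts of each member in the 6 libraries, by genotype, with the marker shape giving the library number and the bar the mean and SD of 3 libraries. *Car13* is the panel in which the TG points (53.5 to 65.8) lie above the WT points (29.8 to 36.8), and in the other 8 panels the points overlap.

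The spread of the members between libraries was in the range of other genes. Their median SD within a genotype was 0.14 on the log2 scale, beside 0.17 over all fitted genes, and it ranged from 0.09 for *Car11* to 0.18 for *Car7*.

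*Car13* and *Car2* were also compared within each library, which does not depend on the size factor of the library. There were 23.4, 16.4 and 19.6 normalized counts of *Car13* per 1000 of *Car2* in TG and 8.22, 12.9 and 9.86 in WT. The TG values were all above the WT values, with means of 19.8 ± 3.50 and 10.3 ± 2.38 (SD, n = 3). On the log2 scale the ratio differed by 0.93, and by 0.78 to 1.10 when any single library was removed. Both genes lie on the plus strand of chromosome 3, with 223270 bases between the end of *Car13* and the start of *Car2*.

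*Car2* was set beside 19 other genes of myelin and mature oligodendrocytes, the cells for which it serves as a marker. These 19 genes had a median log2 difference of -0.43, from -0.59 to -0.28, and 19 of 19 were lower in TG, 17 of them without overlap between the groups, which held for 3.12% of all fitted genes. Their summed normalized counts were 90185 to 116004 in TG and 133327 to 136246 in WT. By limma 0 of the 19 were called at the Benjamini-Hochberg threshold of 0.05, beside 0% of all fitted genes. There were 18 with unadjusted p-values under 0.05, beside 2.01% of all fitted genes. *Shank3* itself missed the threshold in this fit (limma adjusted p-value 0.064), so 0 calls do not show that these genes were unchanged. The paper, which first corrected its p-values with an estimated null distribution, reported *Mbp* and *Mobp* lower in TG, also by qRT-PCR. *Mbp* and *Mobp*, abundant genes encoding major myelin proteins, had log2 differences of -0.46 (standard error 0.15) and -0.54 (standard error 0.14). The value of *Car2*, -0.08, lay outside the range of these 19 genes. Its deviation from its own mean was 0.21 in WT-1, -0.14 in WT-2 and 0.05 in WT-3, where the list's median deviation was 0.15, 0.18 and 0.32. In TG-1, TG-2 and TG-3 it was -0.15, 0.06 and -0.03, where the list had -0.35, -0.03 and -0.24. The difference between *Car2* and these genes was not tested, because *Car2* was chosen with its values known, and in bulk tissue fewer oligodendrocytes and less RNA per oligodendrocyte cannot be told apart.

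The genes whose pattern over the 6 libraries was nearest to that of *Car2* were not from this list. Nearness was the root mean square difference of the centred log2 values over the 6 libraries, among 13454 genes averaging 50 or more normalized counts. The 5 nearest were *Gm13889* (0.029), *Ahi1* (0.031), *Lgi4* (0.039), *P2rx6* (0.042) and *Nat8f1* (0.042), where the median gene had 0.18. Of the myelin genes the nearest was *Cnp*, at place 1169 with 0.115, and *Mal* was the farthest at place 12428 with 0.329.

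*Car13* was nearest to genes that also had higher values in TG. The 5 nearest were *H2-Eb1* (0.147), *Slc47a1* (0.17), *2610001J05Rik* (0.172), *Tnfrsf11b* (0.191) and *Cyp26b1* (0.198), where the median of 13455 genes was 0.461. *H2-Eb1* encodes a chain of MHC class II, and *Slc47a1*, which encodes an organic cation exporter, was also on a list of leptomeningeal genes. *Slc47a1* had 257, 184 and 229 normalized counts in TG and 112, 124 and 156 in WT, a log2 difference of 0.77 (standard error 0.18). *Car13* was chosen with its difference between the genotypes known, so these likenesses are a description.

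Markers of tissue that borders the cortex, the leptomeninges and the choroid plexus, were set beside *Car13*. Of 11 leptomeningeal genes 11 had higher values in TG, 6 of them without overlap (2.91% of all fitted genes), with a median log2 difference of 0.29. Their summed normalized counts were 5612 to 6622 in TG and 4767 to 5397 in WT, and no gene of the 11 was at 0 in any library. By limma 0 of the 11 were called, and 5 had an unadjusted p-value under 0.05 (8 with the replicate number as a block). Over all fitted genes 2.01% had an unadjusted p-value under 0.05 (4.98% with the block). *Igf2*, *Col1a2* and *Slc6a20a*, the most abundant, had log2 differences of 0.24, 0.09 and 0.22. The library with the highest *Car13* was TG-1, whereas the median deviation of the leptomeningeal list was highest in TG-2 (0.26, against 0.08 in TG-1 and 0.04 in TG-3). Of 10 choroid plexus genes 8 were fitted, 5 with higher and 3 with lower values in TG. Their median log2 difference was 0.49, the highest of the 13 lists, and ranged from -1.02 to 2.42. Their summed normalized counts were 197 to 636 in TG and 144 to 320 in WT, and *Otx2* was at 0 in some libraries. By limma 0 of the 8 were called, and 1 had an unadjusted p-value under 0.05 (2 with the replicate number as a block). *Ttr*, the most abundant of them, had 127, 22.9 and 445 normalized counts in TG and 14.3, 12.6 and 41.7 in WT. It was higher in TG at each of the 3 numbers, by 3.06, 0.82 and 3.39 on the log2 scale, with a fitted difference of 2.42 (standard error 0.97), although the groups overlapped. *Kl* and *Prlr*, next in abundance, had lower means in TG, with log2 differences of -0.07 (standard error 0.24) and -1.02 (standard error 0.58). The part of leptomeningeal and choroid plexus cells in the *Car13* values was not tested.

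**Figure D4:**
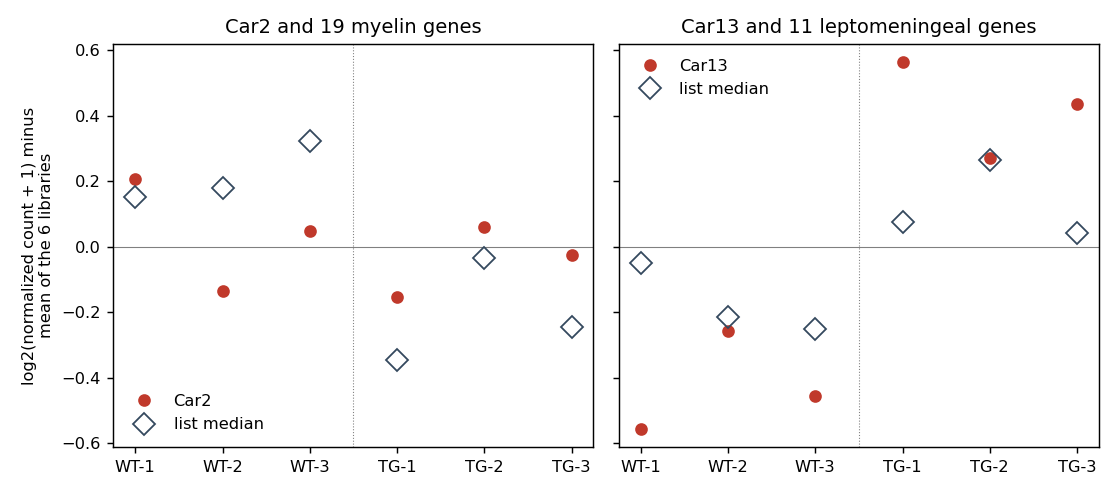
Deviation of log2(normalized count + 1) from the mean of the 6 libraries, for *Car2* beside the median of 19 myelin genes (left) and for *Car13* beside the median of 11 leptomeningeal genes (right). The *Car2* points lie between -0.15 and 0.21 with the genotypes mixed, and the *Car13* points lie at 0.27 to 0.56 in TG and -0.56 to -0.26 in WT.

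Other cells that express members were checked in the same way. The choroid plexus is rich in *Car2*, *Car12* and *Car14*. Not all genes of its list were highest in number 3 of each genotype, but the most abundant, *Ttr*, *Kl* and *Prlr*, were. *Car12* and *Car14* were likewise highest in WT-3 within WT, but lowest in TG-3 within TG, with 221 and 143 normalized counts there. The part of choroid plexus in their values was not tested. Of 10 endothelial genes, the cells of *Car4*, 7 were higher and 3 lower in TG, with a median log2 difference of 0.04, beside 0.05 for *Car4*. Of 5 erythroid genes, of cells rich in *Car2*, 5 had higher values in TG and 0 lower, with a median of 0.17 and summed normalized counts of 6909 to 10646 in TG and 6013 to 9643 in WT. By limma 0 of the 5 were called, 1 had an unadjusted p-value under 0.05 (3 under the replicate block, beside 2.01% and 4.98% of all fitted genes), and 1, *Alas2*, had every TG library above every WT library, as did 2.91% of all fitted genes. The part of red blood cells in the *Car2* values was not tested. The medians were -0.01 for 9 astrocyte genes (3 higher, 6 lower), 0.02 for 6 excitatory neuron genes (3 higher, 3 lower) and -0.02 for 6 inhibitory neuron genes (3 higher, 3 lower). The 9 microglia genes (4 higher, 5 lower) had a median under 0.01 in size. Neuronal genes were abundant in every library, with *Camk2a* between 102685 and 127170 normalized counts.

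The libraries numbered 3 stood apart from numbers 1 and 2 in both genotypes, and 5 of the 9 members followed the number. *Car7*, *Car10* and *Car11* were highest in number 3 of each genotype, as were 24.9% of all fitted genes. *Car7* exceeded the mean of numbers 1 and 2 by 0.22 in TG and 0.34 in WT on the log2 scale, *Car10* by 0.19 and 0.21, and *Car11* by 0.15 and 0.15. *Car4* and *Car8* were lowest in number 3, as were 25.3% of all fitted genes, *Car4* with -0.16 in TG and -0.26 in WT, and *Car8* with -0.20 and -0.23. A gene on the same side in both genotypes was no exception, since 50.2% of all fitted genes were. The excitatory neuron list had a median shift of 0.21 in TG and 0.19 in WT, the endothelial list of -0.16 and -0.18, and the astrocyte list of -0.31 and -0.24. The highest shifts of the 13 lists were those of the choroid plexus list (0.57 in TG and 0.68 in WT) and the erythroid list (0.45 and 0.38). *Car13* did not follow the number, with 0.02 in TG and -0.05 in WT, nor did *Car2*, with 0.02 and 0.01. *Car12* and *Car14* were higher in WT-3 (0.32 and 0.24) and lower in TG-3 (-0.05 and -0.13).

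**Figure D5:**
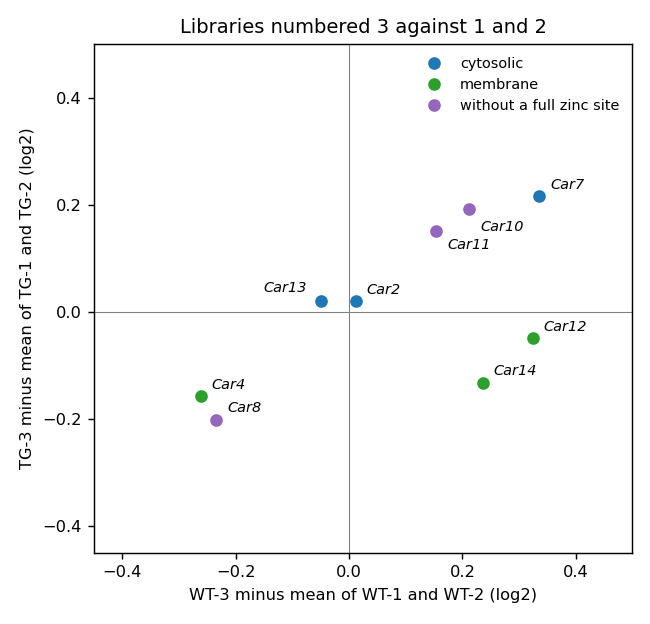
Log2 difference of the library numbered 3 from the mean of numbers 1 and 2, in WT (horizontal) and in TG (vertical), for the 9 members coloured by kind. *Car7*, *Car10* and *Car11* lie at the upper right, *Car4* and *Car8* at the lower left, and *Car2* and *Car13* near the origin.

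The remaining family members were not among the 9 chosen genes and were tested, on a list drawn up with earlier results of these data known. Of 9 listed, 7 were in the table and all 7 were fitted, and *Car1* and *Car6* were not analysed here. None passed the threshold (limma, adjusted p-values of 1), and 0 had an unadjusted p-value under 0.05 with or without the replicate number as a block. *Car5b*, a mitochondrial enzyme, had 171, 196 and 221 normalized counts in TG and 181, 186 and 191 in WT. *Car15*, a membrane-anchored enzyme of rodents, had 151, 131 and 135 in TG and 135, 113 and 113 in WT, a log2 difference of 0.21 (standard error 0.14). *Car5a*, also mitochondrial, had 13.1 to 25.9 normalized counts in TG and 20.2 to 26.0 in WT, and *Car9*, the hypoxia-induced enzyme, had 13.0 to 13.6 in TG and 28.9 in WT-3 against 13.5 and 15.7 in WT-1 and WT-2. *Car3*, an enzyme of muscle and fat whose gene ends 13749 bases before *Car2*, followed the library number, with 28.8 in TG-3 against 10.1 and 8.90, and 47.6 in WT-3 against 11.1 and 9.67. *Ptprz1* and *Ptprg*, receptor phosphatases with a carbonic anhydrase-like domain that kept 1 of the 3 zinc histidines, had log2 differences of -0.03 (standard error 0.14) and -0.02 (standard error 0.10).

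Genes that work with carbonic anhydrases were tested from lists of bicarbonate carriers, proton and lactate carriers and binding partners. Of the 121 genes fitted over all 13 lists, 0 passed the threshold by limma, also with the replicate block. There were 29 with an unadjusted p-value under 0.05, 18 of them myelin genes. Over all fitted genes 0% passed the threshold (0.00598% with the block) and 2.01% had an unadjusted p-value under 0.05 (4.98% with the block). Of the 10 *Slc4* bicarbonate carriers 8 were fitted, 7 higher and 1 lower, with a median log2 difference of 0.02. *Slc4a1*, the anion exchanger of red blood cells, was the 1 with an unadjusted p-value under 0.05, with 21.1, 10.2 and 6.76 normalized counts in TG, 8.50, 1.22 and 1.49 in WT and a log2 difference of 1.73 (standard error 0.71). *Slc4a10*, *Slc4a3* and *Slc4a8*, which are neuronal carriers, had log2 differences of 0.02, 0.10 and 0.05 (standard errors 0.09, 0.10 and 0.08). Of the 15 proton and lactate carriers 7 were higher and 8 lower, with a median of -0.01 and a range from -0.60 to 0.43. The ends of this range were the 2 genes of the list with an unadjusted p-value under 0.05, and their groups did not overlap, which held for 2.91% of all fitted genes with TG above and 3.12% with TG below. *Slc16a3*, a lactate carrier, had 70.4, 46.5 and 53.0 normalized counts in TG and 83.5, 85.8 and 86.4 in WT (log2 difference -0.60, standard error 0.19). *Slc9a2*, a sodium-proton exchanger, had 141, 139 and 115 in TG and 92.4, 88.8 and 111 in WT (log2 difference 0.43, standard error 0.16). *Bsg*, the chaperone of lactate carriers, had a log2 difference of -0.03 (standard error 0.12).

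Of 8 partners of the related and neuronal members 5 were higher and 3 lower in TG, with a median log2 difference of 0.04. *Itpr1*, bound by Car8, had 22373 to 25713 normalized counts in TG and 21008 to 25808 in WT. The neurexins *Nrxn2* and *Nrxn3*, of the family bound by Car10, had log2 differences of 0.09 and 0.05 (standard errors 0.08 and 0.17). *Slc12a5*, the neuronal chloride extruder whose effect on GABA signalling depends on bicarbonate, had 0.06 (standard error 0.08). *Slc12a2*, the chloride importer, was the member of this list with an unadjusted p-value under 0.05, with 1794 ± 210 normalized counts in TG and 2108 ± 127 in WT (SD, n = 3), overlapping groups and a log2 difference of -0.24 (standard error 0.10). The adjusted p-value in limma was 1 for each of the 8.

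Around *Car13* and *Car2* on chromosome 3 no fitted neighbour passed the threshold. The nearest gene in the table before *Car13* was *1810022K09Rik*, on the other strand with a gap of 30441 bases, and it had 499 ± 81.2 normalized counts in TG and 502 ± 105 in WT. The next was *E2f5*, with 221 ± 20.4 in TG and 230 ± 22.6 in WT. Both log2 differences were small, under 0.01 in size for *1810022K09Rik* (standard error 0.18) and -0.06 for *E2f5* (standard error 0.13). After *Car13* the next genes in the table were *Car3* and *Car2*. Beyond *Car2*, *Sirpb1a* had at most 3.16 normalized counts in any library, *Sirpb1b* at most 9.26, and *Ythdf3* had a log2 difference of 0.04 (standard error 0.15). *Gm17119*, on the far side of *E2f5*, had at most 3.88 normalized counts.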

How the data were processed

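The authors estimated transcript abundance with Salmon (v0.9.1) on GRCm38 with GC bias correction, summed it to genes with tximport and divided by DESeq2 (v1.19.11) size factors. The deposited signal values are these normalized read counts. At most 23.2% of a library's values under 20 lay within 0.02 of a whole multiple of a step, so reads were not recovered and no counting interval was given. Names, positions and transcripts came from GENCODE M21 (GRCm38), in which 18215 of 18254 genes were found.

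TG was fitted against WT with limma 3.58.1 in R 4.3.3 on log2(normalized count + 1) for genes with a mean of at least 5 (lmFit, eBayes with trend, two-sided, Benjamini-Hochberg, threshold 0.05). The main fit had genotype as its only term, and a second fit added the replicate number as a block. Deviations from the genotype mean correlated across genes by 0.30, 0.33 and 0.62 for equal numbers. Numbers 1 and 2 were hardly set apart from each other, with 0.27 for TG-1 with WT-2 and 0.23 for TG-2 with WT-1, whereas number 3 against 1 or 2 gave -0.44 to -0.39. P-values measure the spread between pools. Proteins were aligned with Biopython 1.88 (BLOSUM62). The fit was tested on simulated data, where 116 of 200 genes changed by 1 on the log2 scale were called, and 0 of 200 changed by 0.5. The named genes are the members, the other family members, the 3 most abundant genes of each list, 3 neighbours on each side and the 5 nearest patterns. *Cnp*, *Mal*, *Otx2*, *Alas2*, *Nrxn3*, *Slc12a2*, *Slc4a1*, *Slc9a2*, *Slc16a3* and the list genes called under 1 alternative were named after their values were seen. Some genes under this rule and a sequence are not reported here. The members and lists were chosen with earlier results of these data known. Levels per kilobase of all annotated exons were added after seeing the data.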

Additional observations from a re-analysis of the deposited data

How the results depend on the processing

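The number of genes past the threshold was 0 and became 1, *Shank3*, under the replicate block, with the robust option, with a term for the libraries numbered 3 and without WT-3, and 26 with an empirical null. Leaving out each library in turn gave 0 to 1. The number of list genes past the threshold was 0 and became 5 with the empirical null (*Slc47a1*, *Bcas1*, *Aspa*, *Ermn* and *Mog*). The cause was not tested. The replicate block changed no other call. The median log2 difference of the 9 members was -0.01 to 0.08 with each library left out and 0.02 to 0.04 under the other settings. *Car13* stayed between 0.78 and 0.93 in all of them and was removed by the filter at a mean of 50. The sign changed with at least 1 library left out for 7 of the 9 members, and *Car10* and *Car13* kept theirs. Among the other settings *Car11* and *Car14*, both near 0, changed sign. With 3 pools per genotype, differences as small as those of the other 8 members were not detectable.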
